A study of Mus musculus with 3 samples.

Results

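Collagen genes were examined for NKX2-5 binding in mouse embryonic hearts at E11.5. They were taken as the protein-coding genes of the GENCODE M1 annotation of mm9 whose name is Col, a number, a and a number, which gave 43 genes of 22380 in all. The hearts came from Parkes mice described as wild type, and chromatin bound by NKX2-5, a homeodomain transcription factor of the cardiac lineage, was collected with an antibody and sequenced (ChIP-seq). The samples comprised 2 ChIP libraries, S1 and S4, each with a separate list of enriched regions, called peaks (4418 in S1 and 5441 in S4). A further library, 1 Input of genomic DNA, was not analysed here. Both ChIP libraries belong to the same condition, and the labels do not say whether they came from separate pools of hearts. Each peak carries a score, which is 10 times the negative log10 of a p-value set by the peak caller and ran from 140 to 3100 in these lists. The lists hold no read numbers, so depth is unknown and scores are not scaled between the libraries.

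Collagens are extracellular matrix proteins whose alpha chains wind together into a rope-like helix. Fibrillar collagens give tensile strength, type IV collagens form the sheet of basement membranes, and other families coat fibrils, form beaded filaments or span the cell membrane. In the embryonic heart, basement membranes surround the myocardium and endocardium, and fibrillar collagen is made largely by cushion mesenchyme, epicardium-derived cells and fibroblasts. A peak near a gene records binding in the chromatin of the whole heart, and is not a measure of the gene's transcription or of the cell type in which the factor was bound. Of the genes listed as markers of cardiac muscle, 6 of 8 had a shared peak within 50 kb, where genes of like length have a share of 16%. Of the markers of fibroblasts and epicardium 1 of 4 had one (Tbx18, like length 14.6%), of endothelium and endocardium 1 of 4 (Pecam1, 23.8%), and of blood 0 of 2 (14.1%), counts too small to set apart from those shares. All marker lists were chosen with earlier results of these data known. The 6 of 8 for cardiac muscle thus describes that list only, and a difference between cell types was not tested.

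A peak was assigned to a gene when its midpoint lay inside the gene body or within 50 kb of it, and it was called shared when an S1 and an S4 peak overlapped by at least 1 bp with both midpoints in the window. Of 43 collagen genes, 11 had a shared peak (25.6%, 95% Clopper-Pearson interval 13.5% to 41.2%), against 15.7% of all protein-coding genes. Such intervals cover counting error alone, and neighbouring genes can share a peak. Collagen genes are long, with a median of 114.4 kb against 15.4 kb for all protein-coding genes, and longer genes have wider windows. With all protein-coding genes cut by length into 10 classes of equal size and weighted as the collagen genes fall into them, 23.6% had a shared peak, which corresponds to 10.1 of 43 genes. The collagen share thus lay near that of genes of like length, well within its interval. The same held in each library alone. S1 peaks lay at 15 collagen genes (34.9%), against 26.3% of all protein-coding genes and 36.7% of those of like length, and S4 peaks lay at 18 (41.9%), against 32.0% and 42.1%.

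**Figure D1:**
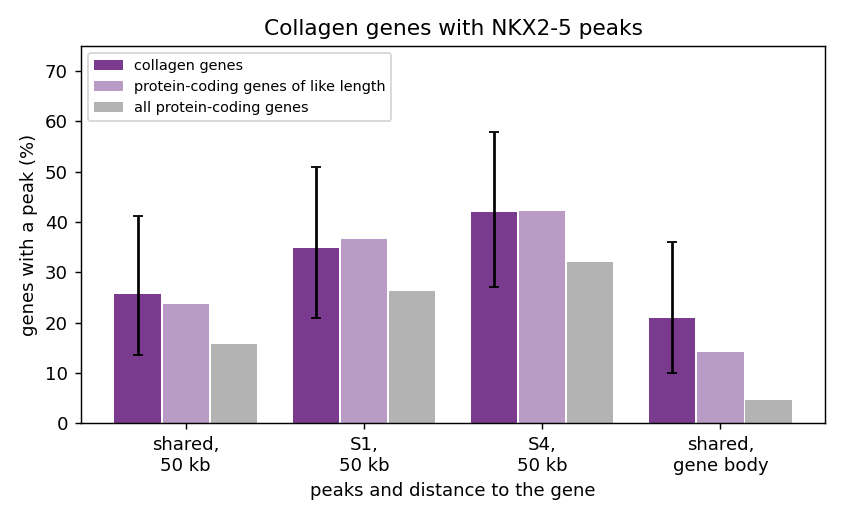
Percentage of genes with a peak (vertical axis) by kind of peak and distance to the gene (horizontal axis), for the 43 collagen genes, protein-coding genes of like length and all 22380 protein-coding genes. Error bars are 95% Clopper-Pearson intervals of the collagen share, and in each set of bars the value for genes of like length lies within them.

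Counted per length of sequence, the windows of the collagen genes, 8.85 Mb when overlaps are counted once, held 11 shared regions, or 1.24 per Mb (exact Poisson interval 0.621 to 2.23). The windows of all protein-coding genes held 1.23 per Mb. Inside gene bodies alone, 9 of 43 collagen genes had a shared peak (20.9%, 10% to 36%), against 4.70% of all protein-coding genes and 14.2% of those of like length. In this narrower count 10 regions in 5.17 Mb gave 1.93 per Mb (0.928 to 3.56), against 1.32 per Mb over all gene bodies. Both density intervals, and the interval of the gene body share, cover the values of all protein-coding genes per Mb and of genes of like length.

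The collagen genes with a shared peak were mostly the longest ones. Among the 23 collagen genes in the longest class, over 105.5 kb, 10 had a shared peak (43.5%, 23.2% to 65.5%), against 30.3% of all genes in that class. Among the 20 shorter collagen genes 1 had a shared peak (5.0%, 0.127% to 24.9%), against 15.8% of genes of like length. That gene was Col6a2, of 27.9 kb. The 11 genes with a shared peak had a median length of 140.9 kb, and the 32 without had 76.1 kb.

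**Figure D2:**
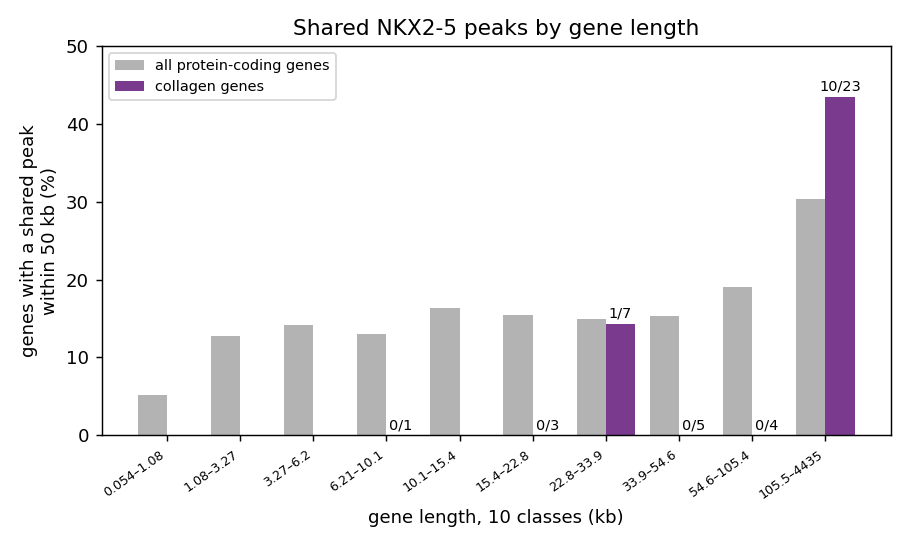
Percentage of genes with a shared peak within 50 kb (vertical axis) in 10 classes of gene length in kb (horizontal axis), for all protein-coding genes and for collagen genes, with the number of collagen genes above each bar. Of the collagen genes with a shared peak, 10 of 11 fall in the longest class, and 1 falls among the 7 genes from 22.8 to 33.9 kb.

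No peak of either library lay within 1 kb of a transcript start of a collagen gene (0 of 43). By the approximate rule of 3 divided by the number of genes, this count allows a share of up to about 6.98%. Among all protein-coding genes, 1.92% had a shared region, 4.23% an S1 peak and 5.61% an S4 peak at their own starts, and for genes of like length these shares correspond to 0.927, 2.14 and 2.71 of 43 genes. Of the 11 shared regions at collagen genes, 10 lay inside a collagen gene and in introns (90.9%, 58.7% to 99.8%). The other 1 lay within 1 kb of a transcript start of another gene, Ftcd. Of all 2546 shared regions of the libraries 40.7% lay in introns and 17.1% within 1 kb of a transcript start, and of the 2025 within 50 kb of a protein-coding gene 50.1% and 21.2% did. These comparison regions were not matched for gene length, so the intron share is a description only. Gene bodies made up 5.17 of 8.85 Mb of the collagen windows, and 994.7 of 1650 Mb of the windows of all protein-coding genes. The collagen gene had the nearest protein-coding start at 6 of 11 regions, and 6 of 11 lay more than 100 kb downstream of the collagen start. No share over all shared regions was at hand for either count. The latter 6 lay in genes of 138.7 to 419.0 kb, and genes of like length were not counted in this way. With each region given only to the nearest start, 14.0% of collagen genes and 12.9% of genes of like length had one. The distance to the nearest protein-coding start had a median of 44.6 kb (5.65 to 144.5 kb), against 41.2 kb over all shared regions.

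**Figure D3:**
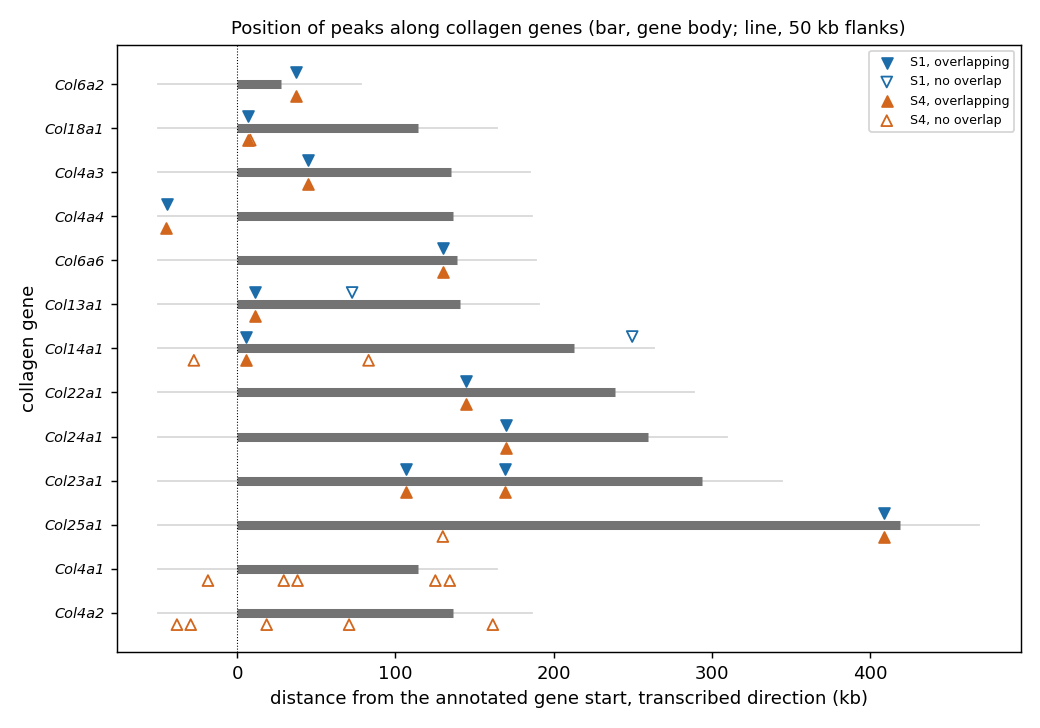
Distance of each peak midpoint from the annotated gene start in kb, in the transcribed direction (horizontal axis), for the 11 collagen genes with a shared peak and for Col4a1 and Col4a2. Bars are gene bodies, thin lines the 50 kb flanks, and filled triangles peaks that overlap a peak of the other library; 10 of the 11 shared regions lie on a bar, and the rows of Col4a1 and Col4a2 hold open S4 triangles only.

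The study asked whether NKX2-5 and MEIS1, another homeodomain factor, share a binding site. The NKX2-5 core AAGTG, its longer form TNAAGTG, which contains it, the MEIS1 core TGACA and the joined form GTGNTGACA, which contains TGACA, were searched as exact letters on both strands, up to 100 bp from the middle of each stretch where an S1 and an S4 peak overlap. The longer forms were chosen in earlier work on these data. Windows of 200 bp are printed for 6 collagen regions to show where these letters lie. They are the regions holding a motif that ranked best when each was judged by its lower-ranked library. They are from the mm9 assembly (NCBIM37), plus strand, written 5′ to 3′, with each match in capitals. On this strand CACTT and TGTCA are AAGTG and TGACA read on the other strand.
Col23a1, distal region, chr11:51272341-51272540: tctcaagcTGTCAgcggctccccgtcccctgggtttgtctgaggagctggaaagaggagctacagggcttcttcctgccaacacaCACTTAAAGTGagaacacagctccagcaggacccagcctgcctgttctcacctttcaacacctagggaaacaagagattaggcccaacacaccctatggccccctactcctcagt
Col14a1, chr15:55144855-55145054: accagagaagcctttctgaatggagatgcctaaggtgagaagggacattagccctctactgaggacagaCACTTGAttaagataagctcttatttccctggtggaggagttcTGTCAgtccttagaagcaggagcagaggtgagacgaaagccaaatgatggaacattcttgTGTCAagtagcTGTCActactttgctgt
Col4a3 and Col4a4, chr1:82627987-82628186: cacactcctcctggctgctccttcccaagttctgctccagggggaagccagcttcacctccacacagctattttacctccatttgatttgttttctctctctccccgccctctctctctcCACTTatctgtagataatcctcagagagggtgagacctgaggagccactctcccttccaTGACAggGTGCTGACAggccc
Col24a1, chr3:145125462-145125661: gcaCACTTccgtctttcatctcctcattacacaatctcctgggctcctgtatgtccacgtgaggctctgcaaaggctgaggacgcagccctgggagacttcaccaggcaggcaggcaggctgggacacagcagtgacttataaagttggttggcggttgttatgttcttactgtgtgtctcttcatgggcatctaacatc
Col6a2, chr10:76049042-76049241: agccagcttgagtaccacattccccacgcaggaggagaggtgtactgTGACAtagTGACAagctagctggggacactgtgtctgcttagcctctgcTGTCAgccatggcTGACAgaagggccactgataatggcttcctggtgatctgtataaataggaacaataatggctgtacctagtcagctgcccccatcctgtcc
Col23a1, proximal region, chr11:51210075-51210274: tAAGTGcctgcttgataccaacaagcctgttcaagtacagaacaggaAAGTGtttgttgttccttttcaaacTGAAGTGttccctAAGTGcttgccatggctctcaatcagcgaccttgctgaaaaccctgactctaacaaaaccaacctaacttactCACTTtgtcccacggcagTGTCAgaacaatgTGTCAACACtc

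The arrangement differed between these windows. In the distal Col23a1 window both TNAAGTG matches overlap back to back close to the midpoint, an arrangement picked out after the sequence was seen, centred at -11.5 and -7.5 bp from it. In the Col14a1 window the TNAAGTG match is centred at -27.5 bp, and the 3 TGACA matches lie to its right, on the same strand as it. The joined form GTGNTGACA lies at the right edge of the window shared by Col4a3 and Col4a4, centred at 90.5 bp, and of the proximal Col23a1 window, centred at 93.5 bp. The Col6a2 window holds 4 copies of TGACA and no AAGTG. The Col24a1 window holds AAGTG alone, at -94.5 bp.

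AAGTG was present at 8 of 11 collagen regions (72.7%, 39.0% to 94.0%), against 63.7% of all shared regions and 39.3% of windows of the same length 2 kb away. TGACA was also present at 8 of 11, against 64.5% and 40.0%. TNAAGTG was present at 5 of 11 (45.5%, 16.7% to 76.6%), against 32.2% and 11.2%, and GTGNTGACA at 2 of 11 (18.2%, 2.28% to 51.8%), against 9.51% and 0.864%. With 11 regions the intervals cover the shares of all shared regions for each motif. Of the 11 windows 2, at Col18a1 and Col6a6, held none of these motifs. At least 1 was present in 84.6% of all shared regions and in 62.5% of the windows 2 kb away. The collagen windows had a median GC content of 52.5%, against 49.5% over all shared regions.

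Fibrillar collagens form the bulk of the tensile matrix. A shared peak was present at 1 of 11 genes, against 2.43 for genes of like length. No peak of either library was present at 8 of 11, where 60.9% of all protein-coding genes, not matched for length, have none. Those 8 were Col1a1 and Col1a2, which encode the chains of type I collagen, Col3a1, Col5a2, Col5a3, Col11a1, Col11a2 and Col27a1. The nearest shared region lay 431.6 kb from Col1a1, 1303.0 kb from Col1a2 and 236.2 kb from Col3a1, while it lay 82.6 kb from Col5a2 and 52.4 kb from Col11a2. The median of this distance was 179.2 kb over all collagen genes. Over all protein-coding genes on chromosomes with a shared region, not matched for length, it was 321.8 kb. Col24a1, a minor fibrillar chain, was the gene with a shared region. It lay in intron 37 of 59, 170.1 kb downstream of the start, at chr3:145125252-145125871, scoring 231.9 in S1 and 358.7 in S4. Col2a1, the collagen of cartilage, had an S1 peak in intron 16 of 53 with a score of 141.6, close to the lowest in the list. Col5a1, which initiates and limits fibril width, had an S4 peak in intron 1 of 65 with a score of 172.1.

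Type IV collagens form the network of basement membranes, and their genes lie head to head in pairs. Of 6 genes 2 had a shared region, against 1.82 for genes of like length, and both rest on the same one. It lay at chr1:82627814-82628359 in intron 1 of 51 of Col4a3, 44.6 kb downstream of that start and 44.7 kb upstream of the start of Col4a4, scoring 332.2 in S1 and 536.5 in S4. At Col4a1 and Col4a2, which encode the most widespread type IV chains, the libraries differed, a contrast singled out after the values were seen. S4 had 7 peaks in their windows, with scores from 140.1 to 312.3, and S1 had none. The highest of these lay at chr8:11330863-11331851 in intron 3 of 47 of Col4a2, 18.6 kb downstream of its start, and a further pair lay in intron 1 of 51 of Col4a1, with scores of 200.9 and 178.8. The next S1 peak was at least 274.7 kb away from every one of the 7. Col4a5 and Col4a6, on chromosome X, had no peak.

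Type VI collagens form beaded filaments around cells. Shared regions were present at 2 of 6 genes, against 1.29 for genes of like length, and Col6a1, Col6a3, Col6a4 and Col6a5 had no peak. At Col6a2 the region lay at chr10:76048909-76049374, 9.37 kb past the end of the gene and 0.737 kb from a transcript start of Ftcd, scoring 294.4 in S1 and 238.7 in S4. At Col6a6 it lay in intron 35 of 36 at chr9:105600050-105600634, 55.0 kb from the start of Pik3r4, and its scores of 150.4 and 158.1 were the lowest of the collagen regions in both libraries.

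Collagens of the fibril-associated family decorate the surface of fibrils. Shared regions were present at 2 of 9 genes, against 2.01 for genes of like length. The region of Col14a1, which binds fibrils and regulates their diameter, had the highest S4 score of the collagen regions. It lay at chr15:55144680-55145230 in intron 1 of 47, 5.65 kb downstream of the start, scoring 338.4 in S1 and 560.9 in S4, ranks of 1030 of 4418 and 607 of 5441. S4 had further peaks 27.4 kb upstream and 83.0 kb downstream of this start, with scores of 218.1 and 176.2, and neither was present in S1. S1 in turn had a peak of 142.5 that was not present in S4, 36.5 kb past the end of the gene at the promoters of Mrpl13 and Mtbp. The region of Col22a1, a collagen of tissue junctions, lay in intron 38 of 63 at chr15:71719849-71720439, 144.5 kb from the start, with nearly equal scores of 180.8 and 182.3. Peaks of a single library lay at Col12a1 (S4, 308.0 in intron 53 of 65 and 368.8 at the promoter of Cox7a2), at Col20a1 (S1, 329.6 over exon 36 and 203.3 at 15.8 kb past the end of the gene) and at Col9a2 (S4, 169.1 at the promoter of Zmpste24). Col9a1, Col9a3, Col16a1 and Col19a1 had no peak.

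Transmembrane collagens, which are shed from the cell surface, had shared regions at 3 of 4 genes, against 1.06 for genes of like length. These genes are long, from 45.8 to 419.0 kb, and the longest class used for like length spans 105.5 to 4435.0 kb. With 4 genes the count is too small to set the family apart, and the difference was not tested. Col23a1 was the collagen gene with 2 shared regions, both in intron 2 of 28. The region 169.0 kb downstream of the start, at chr11:51272225-51272656, had scores of 368.5 in S1 and 472.2 in S4, and the former was the highest S1 score among collagen regions, rank 876 of 4418. The other, 106.8 kb downstream at chr11:51209963-51210387, had scores of 185.6 and 199.7. The region of Col13a1 lay in intron 1 of 40 at chr10:61430551-61431174, 11.0 kb downstream of the start, with scores of 152.9 and 248.4, and an S1 peak of 155 without a partner lay in intron 5. At Col25a1 the region lay in intron 32 of 34 at chr3:130292332-130292901, with scores of 191.4 and 164.1, and the start of Agxt2l1, 27.7 kb away, was much nearer than that of Col25a1, 408.8 kb away. An S4 peak of 147.6 without a partner lay in intron 2 of Col25a1. Col17a1, a component of hemidesmosomes, had no peak.

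Multiplexins are collagens of basement membranes whose ends are cleaved into soluble fragments, such as endostatin from type XVIII collagen. Col18a1 had a shared region at chr10:76622369-76622810, 6.7 kb downstream of the start in intron 2 of 41, scoring 293.4 in S1 and 403.2 in S4, and an S4 peak of 155.9 without a partner in the same intron. Col15a1 had an S1 peak in intron 39 of 39 with a score of 191.2. Among the remaining genes, Col8a2, a short chain of endothelial membranes, had an S1 peak of 156.9 at the promoter of Adprhl2 and an S4 peak of 150 that lay 83.2 kb apart, and Col28a1 had an S4 peak of 168.9 in intron 14 of 34. No peak was present at Col7a1, the anchoring fibril collagen, Col8a1 or Col10a1.

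In all, 11 collagen genes had a shared peak, 10 had peaks that were not shared and 22 had none (51.2%, against 60.9% of all protein-coding genes). The latter share was not matched for gene length, and collagen genes are longer. S1 had 18 peaks in collagen windows, of which 61.1% had a partner in S4, against 58.9% in the whole list. S4 had 28, of which 39.3% had a partner, against 47.0%. The unshared collagen peaks had a median score of 156.9 in S1 (7 peaks) and 176.2 in S4 (17 peaks), near the 171.4 and 183.3 of all unshared peaks.

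**Figure D4:**
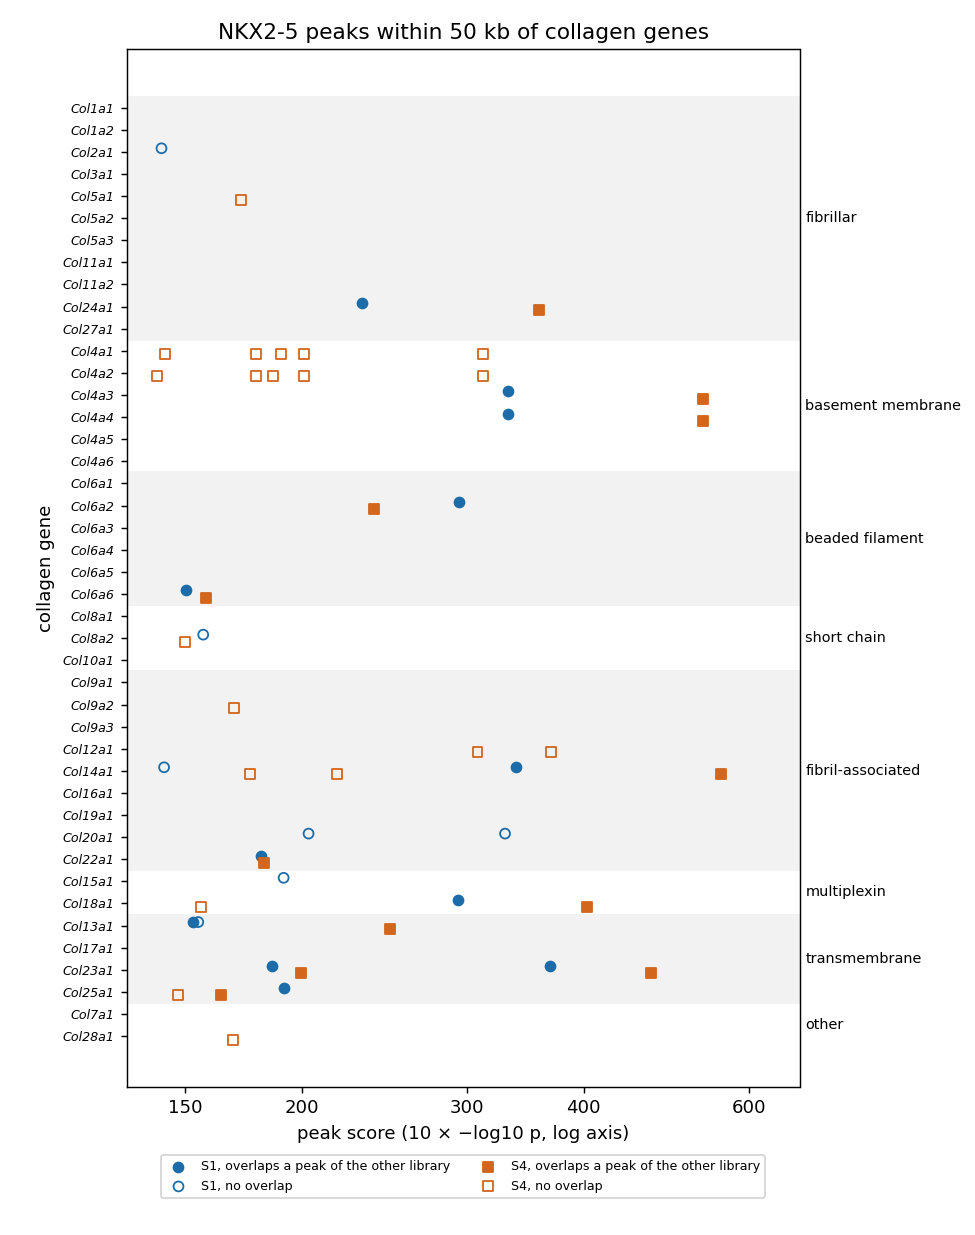
Scores of all peaks within 50 kb of the 43 collagen genes (horizontal log axis, 10 times the negative log10 of p), by gene and family (vertical axis), for S1 (circles) and S4 (squares). Filled symbols overlap a peak of the other library, and rows without symbols are the 22 genes with no peak, among them 8 of 11 fibrillar genes.

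The median score of the shared collagen regions was 231.9 in S1 (150.4 to 368.5) and 248.4 in S4 (158.1 to 560.9), against 280.3 and 315.2 over all 2546 shared regions. None of the 11 lay above the upper quartile of shared regions in S1, 447.4, and 2 lay above that in S4, 531.2, namely those of Col4a3 with Col4a4 and of Col14a1. Below the lower quartile, 194.1 in S1 and 218.3 in S4, lay 5 of 11 and 4 of 11. The log2 ratios of S4 to S1 at the 11 regions lay between -0.30 and 0.73, with a median of 0.36. Over all 2546 shared regions, a much larger set, they lay between -2.3 and 2.9, with a median of 0.16. S4 was higher at 9 of 11, as it was at 60.6% of all shared regions. Peaks are not replicate samples, so these values describe the lists and were not tested.

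Genes that act on collagens after translation, or receive signals from them, were set beside the collagen genes. Of 24 genes for prolyl and lysyl hydroxylases, chaperones, cross-linking oxidases and propeptide proteases, 5 had a shared peak within 50 kb (20.8%), against 18.1% of genes of like length. At Serpinh1, the collagen chaperone HSP47, it lay 2.62 kb upstream of the start, scoring 221.3 in S1 and 173.1 in S4. At Adamts2, which removes the amino-terminal propeptide of fibrillar collagens, it lay inside the gene, with scores of 464.7 and 397.5, but the start of Zfp354c was nearer (81.0 kb) than that of Adamts2 (144.6 kb). The regions at Plod1, a lysyl hydroxylase, lay nearer to the start of Nppb, that at Leprel2 lay at the start of Cdca3, and that at Leprel1 had scores of 168.9 and 158.7. Of 7 collagen receptor genes, 4 had a shared peak (57.1%), against 22.2% of genes of like length. Ddr1, a receptor tyrosine kinase for collagen, had the highest scores, 856.1 in S1 and 1115.0 in S4, at chr17:35857078-35857697, 15.8 kb upstream of its start. Itga1, the integrin subunit that binds type IV collagen, had 3 regions inside the gene, with scores between 142.8 and 233.0 in S1 and between 247.0 and 372.5 in S4, and the start of Pelo was nearer to all 3. The regions at Itga2 and Ddr2 lay nearer to the starts of Mocs2 and Hsd17b7. The lists are short and were not tested.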

How the data were processed

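Peaks were reported by the authors, who aligned reads to mm9 with BOWTIE and called peaks with MACS, giving a list for each ChIP library. Settings, and the role of the Input, are not given in the sources used here. The deposited score is 10 times the negative log10 of the caller's p-value within its own library. Depth was not used. All peaks lay within the NCBIM37 (mm9) assembly, and coordinates are counted from 1. Overlapping pairs with a common peak were merged into 1 region. Positions, lengths and gene starts (the outermost annotated start) were taken from GENCODE M1, and intron numbers from the longest coding transcript, or from the longest that spans the midpoint. Shares carry exact Clopper-Pearson intervals at 95%, densities exact Poisson intervals, and all cover counting error only. The limit for 0 of 43 genes is instead the approximate 3 divided by 43. With 1 condition, no test was made.

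The members and lists were chosen with earlier results of these data known. Every collagen gene was named by family, those with a peak with their scores. The contrast between the libraries at Col4a1 and Col4a2 and the back-to-back motif at Col23a1 were singled out after values were seen. Windows and the sharing rule were tested on simulated peaks at genes far from other protein-coding genes. Overlapping windows and peaks at the edge of a window were not simulated. Alternatives were the distance, score, overlap, assignment, chromosomes, length classes, promoter limit, motif window and each library alone. Python 3.11.15, numpy 2.4.6, scipy 1.17.1, pandas 2.3.3 and pysam 0.24.0 were used.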

Additional observations from a re-analysis of the deposited data

How the results depend on the processing

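Of 56 values under other settings 30 stayed within the spread used for comparison, which was the SD of the values of S1 and S4 for shares of genes and median scores, a factor of 1.5 for counts, and the Clopper-Pearson interval for shares of regions. As scores are not scaled between the libraries, the SD for median scores also holds any difference in scale. It is a yardstick only. Each library alone, with no sharing required, gave collagen shares from 34.9% to 41.9%, shares of genes of like length from 36.7% to 42.1% and 18 to 28 peaks. Within 100 kb the collagen share rose to 32.6%, that of genes of like length to 31.3%, and the regions to 17, with Col5a2, Col11a2 and Col16a1 added. Requiring a score of 200 or more from each library gave 16.3%, 16.1% and 6 regions. Assigning each region only to the nearest protein-coding start gave 14.0%, 12.9% and 6 regions. The share of genes of like length was 14.2% inside gene bodies, 16.8% within 10 kb and 19.0% with midpoints within 150 bp, where the collagen shares were 20.9%, 23.3% and 23.3%. The collagen share was above that of genes of like length in each setting with sharing where both were computed, and below it in each library alone. Inside gene bodies no region lay at a promoter (0.0%) and 100% lay in introns. That outcome was fixed by the limit, as the region it leaves out is the one near the start of Ftcd. The median score in S1 was 313.3 with scores of at least 200 (all shared regions 373.1), and 211.7 both inside gene bodies (280.3) and with an overlap of 50% of both peaks (288.3). In S4 it was 437.7 with scores of at least 200 (all shared regions 437.0), so the lower S4 median of collagen regions was not kept at that score limit. Inside gene bodies it was 303.6 in S4 (315.2). The values 280.3 and 315.2 set beside the gene body medians are those of all shared regions at any position. They were not limited to gene bodies. All 11 regions held a motif (100%) when the whole shared stretch was searched, as did 97.0% of all shared regions. No share for nearby stretches was at hand for this setting. The causes were not tested. The number of 43 genes limits what the shares can show.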

Other observations

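The values below were chosen after the data were seen. Of 187 protein-coding genes with at least 5 S4 peaks within 50 kb, 2 had no S1 peak (1.07%), and these were Col4a1 and Col4a2, which share their start region and 3 of these S4 peaks. The limit of 5 equals the S4 peak count of each of these 2 genes. The share is thus not independent of them, and they make up a single locus. No protein-coding gene had at least 5 S1 peaks and no S4 peak. The 7 S4 peaks ranked between 1565 and 5438 of 5441. Of all S4 peaks without a partner in collagen windows, 70.6% held at least 1 of the motifs, against 74.3% over the whole list. Windows 2 kb from shared regions held at least 1 in 62.5% of cases, so a match is common without a peak. The pair in intron 1 of Col4a1 held none. The highest of the 7, in intron 3 of Col4a2, held the NKX2-5 core in its short and longer forms and the MEIS1 core on the other strand. These matches are in capitals in the window chr8:11331257-11331456 of mm9, plus strand.
Col4a2, S4 peak: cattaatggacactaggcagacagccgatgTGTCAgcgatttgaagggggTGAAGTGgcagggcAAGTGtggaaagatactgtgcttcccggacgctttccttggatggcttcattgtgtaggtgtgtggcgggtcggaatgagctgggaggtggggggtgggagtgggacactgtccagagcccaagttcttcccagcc

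The back-to-back stretch CACTTAAAGTG of the distal Col23a1 region occurred in 4 of 2546 windows of shared regions (0.157%), and in no other collagen region.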
